A study of Homo sapiens with 21 samples.

Results

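The genes described here encode chains of laminin, and are the 9 gene symbols LAMA1, LAMA2, LAMA3, LAMA4, LAMA5, LAMB1, LAMB2, LAMC1 and LAMC3 among the 60728 gene identifiers of the deposited expression table. They were chosen by symbol, and all 9 are in the table. Messenger RNA was sequenced in 21 libraries of SK-N-BE(2), an established human neuroblastoma cell line with amplified MYCN, cultured as 1 line and collected in biological triplicates 72 h after transduction with lentiviral particles carrying short hairpin RNAs (shRNAs). The question was what disruption of the BAF chromatin remodelling complex, through its subunits ARID1A and ARID1B, does to the transcriptome. Each of the 7 conditions had 3 libraries. They were a control shRNA (Control), 2 conditions labelled as silencing ARID1A (shARID1A.2 and shARID1A.4), 2 labelled as silencing ARID1B (shARID1B.2 and shARID1B.3) and 2 labelled as combinations against both (shARID1A/B.2.3 and shARID1A/B.4.2). All cells were transduced, controls included, and all 6 silenced conditions were compared with the same 3 Control libraries.

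Laminins are large secreted proteins of the basement membrane, each built from an alpha, a beta and a gamma chain that coil together along their long arms. The ends of the short arms of most chains let the trimers join into a sheet, and the globular end of the alpha chain binds integrins, dystroglycan and other receptors on the cell surface. A trimer needs an alpha chain to be secreted efficiently, and the choice of alpha chain decides which receptors a laminin can engage. Schwann cells, vessels, muscle and epithelia differ in the chains they make, and neural crest cells migrate along laminin.

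The targeted genes were read first, because the labels and the libraries disagree. ARID1A had 6097, 6374 and 6463 normalised reads in Control, and its mean was 34.0% of Control in the libraries labelled shARID1A.2, 35.5% in shARID1A.4, 30.4% in shARID1B.2 and 39.3% in shARID1B.3. The combinations kept more of it, 89.7% for the one labelled 2.3 and 86.2% for the one labelled 4.2. ARID1B had 5793, 5804 and 5791 normalised reads in Control and was at 38.7% in shARID1A.2, 53.5% in shARID1A.4, 44.8% in shARID1A/B.2.3 and 32.9% in shARID1A/B.4.2. It was at 86.3% with the shRNA labelled shARID1B.2 and at 105% with the one labelled shARID1B.3. The label shARID1A therefore marks libraries in which both transcripts were below Control. A loss of ARID1A with ARID1B near Control went with the label shARID1B, and a loss of ARID1B with ARID1A near Control with the label shARID1A/B. The conditions are named by their labels throughout, as "the libraries labelled" with that name. The words combination and shRNA of a label likewise repeat the labels, and do not state which transcript was low. A combination here means a condition labelled shARID1A/B, with ARID1B low and ARID1A near Control.

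**Figure D1:**
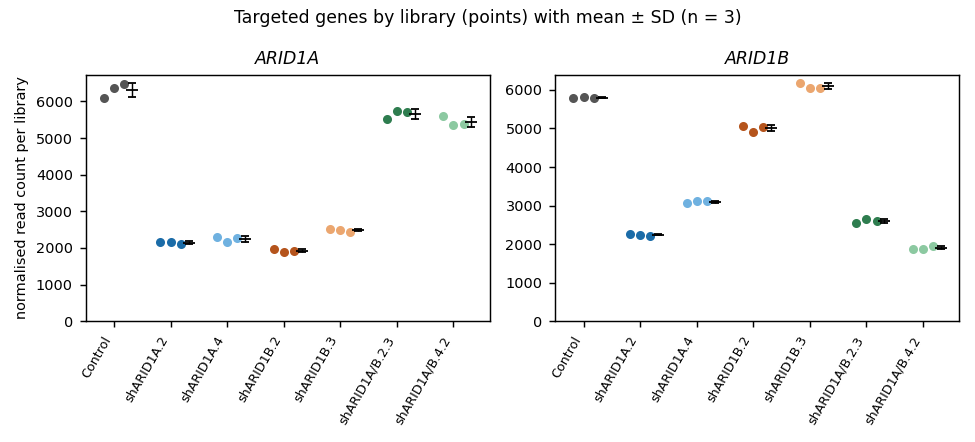
Normalised read counts of ARID1A (left) and ARID1B (right) in each of the 21 libraries (points, y axis from 0), by label, with the mean and SD of 3 libraries (black). ARID1A lies between 1882 and 2507 in the 4 conditions labelled shARID1A or shARID1B, and ARID1B does not pass 3126 in the 4 conditions labelled shARID1A or shARID1A/B.

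The 21 libraries held 27954334 to 41077638 reads on genes (median 34973565). The adrenergic neuroblastoma markers were all present (8 of 8), with MYCN alone between 77312 and 426870 normalised reads, and the summed list ran from 115084 in shARID1A/B.4.2 to 470912 in shARID1A.4. SOX10 of Schwann cells and KRT5 of epithelia were at 0 in every library, and PECAM1 of endothelium did not pass 2.81. Among genes often used as fibroblast markers (6 of 6 found) COL1A1, LUM and PDGFRB had the highest medians, at 7592, 7156 and 4639 normalised reads. COL1A2 had only 1.0 to 24.7. Which cells these reads came from was not tested. In bulk RNA fewer cells of a type and less RNA per cell cannot be told apart.

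Promoter sequence is shown for LAMC1, which differed most clearly between the shRNAs of one label, and for LAMA5, the alpha chain with the highest Control level. Each line gives the 250 bases before the RefSeq start on GRCh38.p14, read 5′ to 3′ on the gene's own strand (LAMC1 at chr1:183023170-183023419 on the plus strand, LAMA5 at chr20:62367313-62367562 on the minus strand). Capitals mark matches to the GC box letters GGGCGG on either strand.

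LAMC1: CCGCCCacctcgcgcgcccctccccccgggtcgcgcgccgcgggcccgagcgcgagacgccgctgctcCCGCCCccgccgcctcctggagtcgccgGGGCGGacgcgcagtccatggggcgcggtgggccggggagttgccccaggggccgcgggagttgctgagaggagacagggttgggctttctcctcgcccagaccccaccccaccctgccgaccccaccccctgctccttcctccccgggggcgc

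LAMA5: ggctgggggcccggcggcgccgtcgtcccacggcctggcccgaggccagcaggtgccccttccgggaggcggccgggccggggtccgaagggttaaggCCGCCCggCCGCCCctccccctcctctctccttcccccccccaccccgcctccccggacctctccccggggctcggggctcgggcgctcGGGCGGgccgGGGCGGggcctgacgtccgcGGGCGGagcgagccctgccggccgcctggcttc

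The LAMC1 stretch held 3 GC box matches and the LAMA5 stretch 5, with 79.6% and 82.8% G or C and 32 CG dinucleotides in each. Of all 35116 RefSeq windows of this length, 42.64% hold the GC box. Entries were found for 7 of the 9 genes, with LAMA1 and LAMC3 unmatched. The LAMA4 window stood apart in composition, with 48.4% G or C, 5 CG dinucleotides and no match on either strand to the GC box or to any of the 4 other motifs searched. LAMB1 held 4 GC boxes in 70.4% G or C, LAMB2 held 1, and LAMA3 held 1 together with 2 matches to the AP-1 letters TGANTCA, which 6.57% of all windows hold. LAMA2 held 1 match to the TEAD letters GGAATG (11.89% of all windows). The E-box letters CACGTG were in none of the 7 windows, against 6.34% of all. The TATA letters TATAAA were in none of the 7 either, against 10.72% of all. Both strands were read for each motif. These matches describe the letters only. The windows of LAMA3, LAMA4, LAMB1 and LAMB2 overlap exons of longer annotated transcripts by 180, 187, 94 and 68 bases and are not printed.

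Control cells transcribed mainly one beta and one gamma chain. Levels of different genes were set side by side per kb of annotated exon. That length joins the exons of all annotated transcripts of a gene, not those expressed here, so the comparison between genes is approximate. LAMB1 had a normalised read count per kb of 2389 ± 56.3 (SD, n = 3) and LAMC1 1941 ± 36.6. LAMB2 had 165 ± 10.1 and LAMC3 47.9 ± 0.719 on the same scale. Among the alpha chains LAMA5 led with 135 ± 3.86 per kb, followed by LAMA4 with 41.4 ± 3.41. LAMA3 (3.94), LAMA1 (2.09) and LAMA2 (0.60) were near the lower end of detection, with 42 to 66, 27 to 36 and 5 to 6 reads per Control library. The 5 alpha chains summed to 183 ± 5.89 per kb, against 2553 ± 63.1 for LAMB1 plus LAMB2 and 1988 ± 37.2 for LAMC1 plus LAMC3.

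Of the 9 members, 6 were lower and 2 higher than Control in shARID1A.2 (adjusted p under 0.05, limma), where 38.2% of all 18584 genes tested were lower and 37.9% higher. In shARID1A.4 the counts were 6 lower and 2 higher, beside 36.6% and 37% of all genes. In shARID1B.2 7 members were lower and 0 higher, beside 34% and 31.6%, and 0 is also the number higher there by edgeR and by DESeq2 and at an unadjusted p under 0.05. In shARID1B.3 5 were lower and 2 higher, beside 32% and 31.9%. The libraries labelled shARID1A/B had 6 lower and 1 higher in both combinations, beside 34% and 35.2% of all genes for 2.3 and 36.1% and 35.1% for 4.2. Replicates were close (median standard error over all genes 0.068 on the log2 scale), so that most genes passed in each comparison and the counts say less than the sizes.

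The median log2 fold change of the 9 members was negative in each condition, from -0.78 in shARID1B.2 to -0.29 in shARID1A/B.2.3, while that of all genes lay between 0.01 and 0.02. A change of at least 1 on the log2 scale with an adjusted p under 0.05 was reached by 4 members in shARID1A.2 (24.8% of all genes), 1 in shARID1A.4 (21.4%), 3 in shARID1B.2 (12%), 1 in shARID1B.3 (11.8%), 2 in shARID1A/B.2.3 (16.1%) and 1 in shARID1A/B.4.2 (18.4%). With 9 genes these shares are counts, and nothing particular to laminins is read from them.

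LAMC1 encodes the gamma chain shared by most laminins, and it differed between the 2 shRNAs labelled shARID1A and between the 2 labelled shARID1B. Control libraries had 16144, 16667 and 16125 normalised reads. The libraries labelled shARID1A.2 had 6611, 6920 and 6631, and those labelled shARID1B.2 had 5083, 5134 and 5089. Both sets lie far below every Control library, at log2 fold changes of -1.28 (SE 0.02, limma adjusted p = 6.6e-25) and -1.68 (SE 0.02, limma adjusted p = 2.0e-26).

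With the other shRNA of each label LAMC1 stayed near Control. It had 13289, 13291 and 13268 normalised reads in shARID1A.4 and 17272, 18027 and 17871 in shARID1B.3. The first set is below Control (log2 fold change -0.30) and the second above it (0.12, limma adjusted p = 2.4e-05), with no overlap in either. The combinations had 12821, 12914 and 13066 in shARID1A/B.2.3 and 13922, 14268 and 14044 in shARID1A/B.4.2, at -0.33 and -0.21. The latter was -0.03 and not called when libraries were scaled to total reads.

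The difference between the 2 shRNAs of a label was tested in the same fit. Of the 9 members 3 were lower and 3 higher in shARID1A.4 than in shARID1A.2, beside 38.4% and 37.3% of all genes. For shARID1B.3 against shARID1B.2 it was 2 and 3, beside 33% lower and 33% higher, and for shARID1A/B.4.2 against shARID1A/B.2.3 it was 4 and 4, beside 37.1% and 37.8%. For LAMC1 it was 0.98 for shARID1A.4 against shARID1A.2 and 1.80 for shARID1B.3 against shARID1B.2 (SE 0.02 in both, limma adjusted p = 9.7e-23 and 3.2e-27), but 0.12 between the combinations. ARID1A itself was 0.06 and 0.37 higher on the log2 scale in those same first 2 contrasts, and ARID1B 0.47 and 0.28 higher. Between the combinations ARID1A differed by -0.06 and ARID1B by -0.45. The order of the 7 LAMC1 levels, from shARID1B.3 through Control, shARID1A/B.4.2, shARID1A.4, shARID1A/B.2.3 and shARID1A.2 to shARID1B.2, had no overlap between neighbours.

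Averaged over the 2 conditions of a label, in a test added after the values were seen, LAMC1 in the libraries labelled shARID1A was -0.01 from that in those labelled shARID1B (SE 0.01, limma adjusted p = 0.59), a contrast that 67.3% of all genes passed. That average joins a large and a small change on each side. LAMC1 was 0.50 higher on the log2 scale in the mean of the combinations than in that labelled shARID1B. It was 0.51 higher than in that labelled shARID1A (SE 0.01 in both, limma adjusted p = 9.5e-20 and 4.3e-19). Both values exceed the 0.12 between the combinations, but not the 1.80 within the label shARID1B or the 0.98 within shARID1A. Only shARID1A.2 and shARID1B.2 lay below the combinations, while shARID1A.4 lay between them and shARID1B.3 above them. These standard errors measure the spread between cultures, not between the shRNAs of a label.

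LAMC3, a gamma chain of restricted expression, had 364, 369 and 358 normalised reads in Control. It was 277, 266 and 292 in shARID1A.2, 280, 308 and 261 in shARID1B.2 and 235, 300 and 244 in shARID1A/B.4.2, each below every Control library. The log2 fold changes were -0.39, -0.36 and -0.49 (SE 0.08), with -0.28 in shARID1A/B.2.3. LAMC3 in shARID1A.4 (0.09, limma adjusted p = 0.31) did not pass. In shARID1B.3 it was -0.20 with a limma adjusted p of 0.042, a call that edgeR, DESeq2, scaling to total reads or the upper quartile, the absence of a low-value filter and the omission of any single Control or shARID1B.3 library removed.

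LAMB1 encodes the main beta chain here, and it was lower than Control in all 6 conditions under the deposited scaling. Control had 19089, 19962 and 19285 normalised reads, and the silenced libraries lay between 12553 and 17584, below every Control library. The lowest levels were 13082, 12553 and 12701 in shARID1A/B.4.2 and 13383, 12692 and 13001 in shARID1A.4, which overlapped each other. The log2 fold changes were -0.61 and -0.58 there, -0.34 in shARID1B.3, -0.29 in shARID1A.2, -0.29 in shARID1A/B.2.3 and -0.15 in shARID1B.2 (SE 0.02 throughout, the largest limma adjusted p = 1.2e-06). With libraries scaled to total reads the last was -0.02 and not called.

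LAMB2, the beta chain known from neuromuscular synapses and the kidney filter, followed another order. It had 1050, 1165 and 1175 normalised reads in Control, 781, 722 and 736 in shARID1A.4, 687, 653 and 655 in shARID1B.3 and 767, 757 and 786 in shARID1A/B.4.2. These 3 conditions lay below every Control library, at log2 fold changes of -0.60, -0.76 and -0.55 (SE 0.07). LAMB2 in shARID1A/B.2.3, with 808, 1016 and 921 normalised reads, was also below Control (-0.31, limma adjusted p = 0.00018). In shARID1A.2 (1101, 1109 and 1160 normalised reads) and shARID1B.2 (930, 1084 and 1075) LAMB2 overlapped Control and did not pass, with 95% confidence intervals of the log2 fold change of -0.14 to 0.13 and -0.27 to -0.0016, the latter with a limma adjusted p of 0.070. With libraries scaled to total reads LAMB2 in shARID1A.2 was 0.16 and passed as higher (limma adjusted p = 0.032). Leaving out 1 library moved LAMB2 in shARID1B.2 between -0.19 and -0.064, and it passed as lower without Control replicate 1, shARID1B.2 replicate 2 or 3, or shARID1A/B.2.3 replicate 1 or 2. LAMB2 was thus near Control with the 2 shRNAs under which LAMC1 fell most, and the reverse held for shARID1B.3. The differences between shRNAs were -0.59 for shARID1A.4 against shARID1A.2 and -0.63 for shARID1B.3 against shARID1B.2 (limma adjusted p = 1.2e-08 and 5.9e-09), and -0.24 between the combinations. That last LAMB2 difference was -0.09 and not called when libraries were scaled to total reads (limma adjusted p = 0.23).

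**Figure D2:**
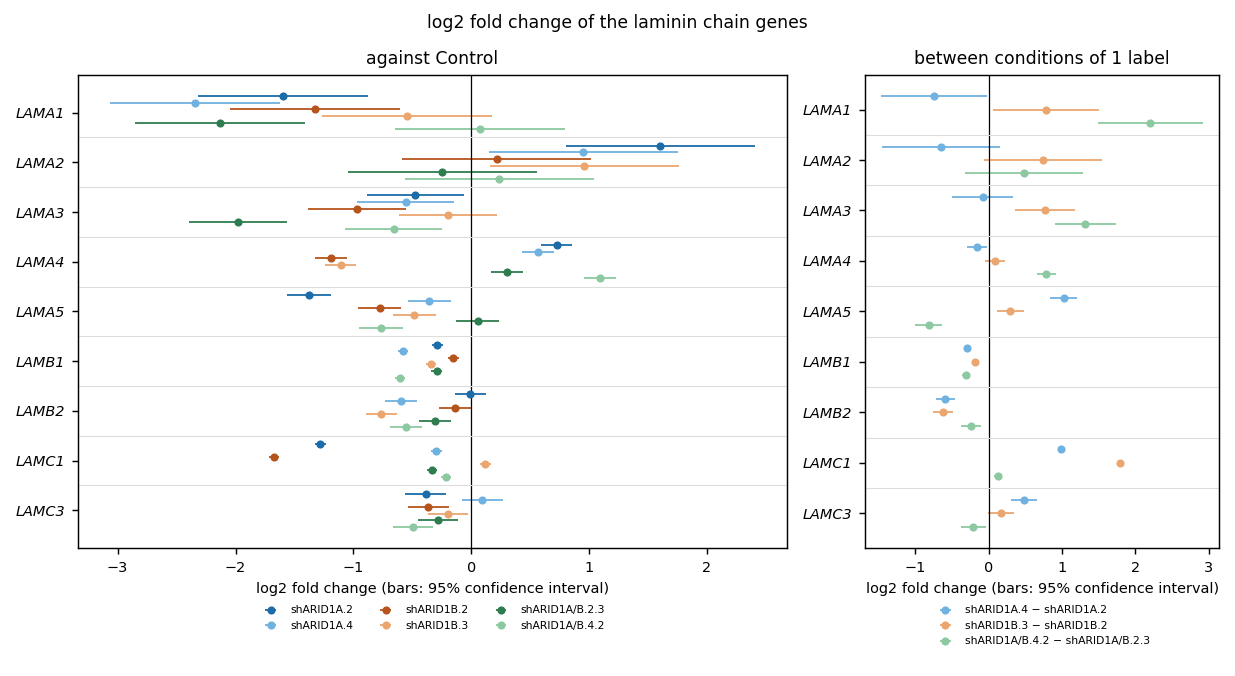
Log2 fold changes of the 9 genes against Control (left, 6 conditions) and between the 2 conditions of a label (right), with 95% confidence intervals from the limma fit; colours mark conditions. LAMA4 lies right of 0 in 4 conditions and left of 0 in the 2 labelled shARID1B, and LAMC1 lies beyond -1 only in shARID1A.2 and shARID1B.2.

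LAMA4 encodes an alpha chain of vessels and nerve with a truncated short arm, and its direction followed the label. Control had 451, 461 and 524 normalised reads. It was 217, 188 and 223 in shARID1B.2 and 217, 216 and 231 in shARID1B.3, below every Control library and overlapping each other. The log2 fold changes were -1.19 and -1.11 (SE 0.06, limma adjusted p = 3.4e-14 and 1.6e-13).

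In the other conditions LAMA4 rose. It had 760, 806 and 803 normalised reads in shARID1A.2 and 708, 724 and 690 in shARID1A.4. The combinations had 610, 550 and 609 in shARID1A/B.2.3 and 982, 1038 and 1035 in shARID1A/B.4.2. All 12 libraries lie above every Control library, at log2 fold changes of 0.72, 0.57, 0.30 and 1.09 (SE 0.06, the largest limma adjusted p = 0.00022).

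The conditions with higher LAMA4 are those in which ARID1B was at 32.9% to 53.5% of Control, and the conditions with lower LAMA4 are those in which it was at 86.3% and 105%. Tested directly, LAMA4 was 1.79 higher on the log2 scale in the mean of the 2 conditions labelled shARID1A than in the mean of the 2 labelled shARID1B (SE 0.05, limma adjusted p = 9.6e-21). It was 1.85 higher in the mean labelled shARID1A/B than in that labelled shARID1B (limma adjusted p = 3.2e-21), where 70.2% of all genes passed. Between the labels shARID1A/B and shARID1A the LAMA4 difference was 0.05 (limma adjusted p = 0.35), where 59.2% passed. That average does not make the labels alike. It joins 0.30 and 1.09 under shARID1A/B, which lie on either side of the 0.72 and 0.57 under shARID1A. The 2 conditions labelled shARID1A/B differed by 0.79 (limma adjusted p = 5.7e-11). ARID1B differed by -1.07, -1.31 and -0.24 in the 3 contrasts between labels, and ARID1A by 0.01, 1.35 and 1.34. The contrasts between labels were added after the values were seen. Control, with ARID1B at 100%, had a LAMA4 mean of 479, against 209 in shARID1B.2 and 221 in shARID1B.3. Whether LAMA4 depends on either subunit was not tested.

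Markers of other cell types moved with these conditions too. The summed fibroblast list (6 genes, none at 0 in any library) was 35281 to 35848 normalised reads in Control, 32067 to 33473 in shARID1B.2 and 29044 to 30684 in shARID1B.3. It was 12269 to 13493 in shARID1A.2, 13445 to 13672 in shARID1A.4, 19414 to 19748 in shARID1A/B.2.3 and 14507 to 15144 in shARID1A/B.4.2, so that it was lowest where LAMA4 was high. The Schwann cell list, with SOX10 at 0, summed to 137 to 161 in Control, 569 to 608 in shARID1A.2 and 142 to 324 in the other conditions. The leukocyte list, nearly all of it PTPRC and CD14, was 429 to 459 in Control, 317 to 329.9 in shARID1B.3 and 91.7 to 201 in the other 5 conditions. The epithelial list, with KRT5 at 0, was 112 to 122 in Control, 299 to 318 in shARID1A.2 and 93.4 to 259 elsewhere. The endothelial list, with PECAM1 at 0 to 2.81, was 44.8 to 88.1 in Control, 1.94 to 12.98 in shARID1A.4 and 8.76 to 113 elsewhere. Unlike the fibroblast list, these 4 did not separate the conditions with higher LAMA4 from those labelled shARID1B. The fibroblast list was highest in Control, where LAMA4 lay between these sets of conditions. The part of any of these lists in the LAMA4 result was not tested.

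LAMA5 encodes the most widespread alpha chain of adult basement membranes. Control had 1873, 1983 and 1920 normalised reads and shARID1A.2 had 805, 689 and 732, the lowest set. shARID1B.2 had 1041, 1072 and 1268, shARID1A/B.4.2 had 1027, 1146 and 1229, shARID1B.3 had 1591, 1400 and 1173, and shARID1A.4 had 1682, 1360 and 1488. These 5 conditions lay below every Control library, while shARID1A/B.2.3, with 1987, 2050 and 1956, overlapped Control. The log2 fold changes were -1.38, -0.78, -0.77, -0.48 and -0.36 in that order (SE 0.09, the largest limma adjusted p = 0.0010). For LAMA5 in shARID1A/B.2.3 the change was 0.05, with a 95% confidence interval of -0.13 to 0.24.

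The shRNAs of one label differed for LAMA5 in opposite directions. It was 1.02 higher in shARID1A.4 than in shARID1A.2 and 0.82 lower in shARID1A/B.4.2 (log2 difference -0.82) than in shARID1A/B.2.3 (limma adjusted p = 1.9e-10 and 1.1e-08). The LAMA5 difference of 0.29 for shARID1B.3 against shARID1B.2 was not called without shARID1B.3 replicate 1 (0.19) or with scaling to total reads.

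LAMA1, the alpha chain of the early embryonic laminin, was read by 3 to 51 reads per library. It had 31.7, 40.3 and 27.7 normalised reads in Control, 5.82, 13.4 and 13.4 in shARID1A.2, 2.91, 5.95 and 9.98 in shARID1A.4, and 14.01, 10.42 and 13.3 in shARID1B.2. In shARID1A/B.2.3 it had 6.08, 7.29 and 6.81. All 4 conditions lay below every Control library, at log2 fold changes of -1.59, -2.34, -1.33 and -2.13 (SE 0.35, the largest limma adjusted p = 0.0018).

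The other condition labelled shARID1A/B went apart for LAMA1. It had 40.1, 39.4 and 26.2 normalised reads in shARID1A/B.4.2, within the Control range but for its lowest value, and shARID1B.3 had 27.9, 16.1 and 24.2. Neither passed (limma adjusted p = 0.86 and 0.18), with 95% confidence intervals of -0.65 to 0.79 and -1.27 to 0.18. LAMA1 was 2.21 higher on the log2 scale in shARID1A/B.4.2 than in shARID1A/B.2.3 (SE 0.35, limma adjusted p = 3.9e-06), with no overlap.

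LAMA3, the alpha chain of epithelial hemidesmosomes, had 49.3, 73.9 and 50.3 normalised reads in Control. It was lowest in shARID1A/B.2.3, with 16.2, 12.5 and 12.7, followed by shARID1B.2 with 29.8, 26.6 and 29.3. Both lay below Control, at log2 fold changes of -1.98 and -0.97 (SE 0.20, limma adjusted p = 3.4e-09 and 1.6e-04). The changes of LAMA3 in shARID1A/B.4.2 (-0.66), shARID1A.4 (-0.56) and shARID1A.2 (-0.47) passed but were not called without Control replicate 2 (-0.47, -0.37 and -0.29), its highest Control library, and the last 2 were also lost without replicate 1 of their own condition (-0.41 and -0.38). The call of LAMA3 in shARID1A.2 was lost as well with DESeq2, with scaling to total reads (-0.31), with upper-quartile scaling (-0.42) and with no low-value filter (adjusted p = 0.062, 0.16, 0.060 and 0.078, by limma except the first). LAMA3 was 1.32 higher in shARID1A/B.4.2 than in shARID1A/B.2.3 and 0.77 higher in shARID1B.3 than in shARID1B.2 (limma adjusted p = 2.3e-06 and 0.0016).

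LAMA2, the alpha chain of muscle and peripheral nerve whose loss causes a congenital muscular dystrophy, was the rarest member, with 3 to 22 reads per library. It had 5.87, 6.72 and 6.16 normalised reads in Control and 18.3, 20.6 and 24.5 in shARID1A.2, all above Control (log2 fold change 1.60, SE 0.39, limma adjusted p = 0.00067). In shARID1A.4 it had 17.5, 15.5 and 7.98 and in shARID1B.3 17.9, 14.2 and 8.63, also above Control, at 0.95 and 0.96 (limma adjusted p = 0.032 and 0.035). Those calls were lost with DESeq2 and with no low-value filter. They were also lost without Control replicate 1 or 3 or replicate 1 or 2 of the condition (0.75 to 0.94 for shARID1A.4, 0.74 to 0.95 for shARID1B.3), and for shARID1B.3 also without Control replicate 2. The remaining 3 conditions did not pass for LAMA2.

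**Figure D3:**
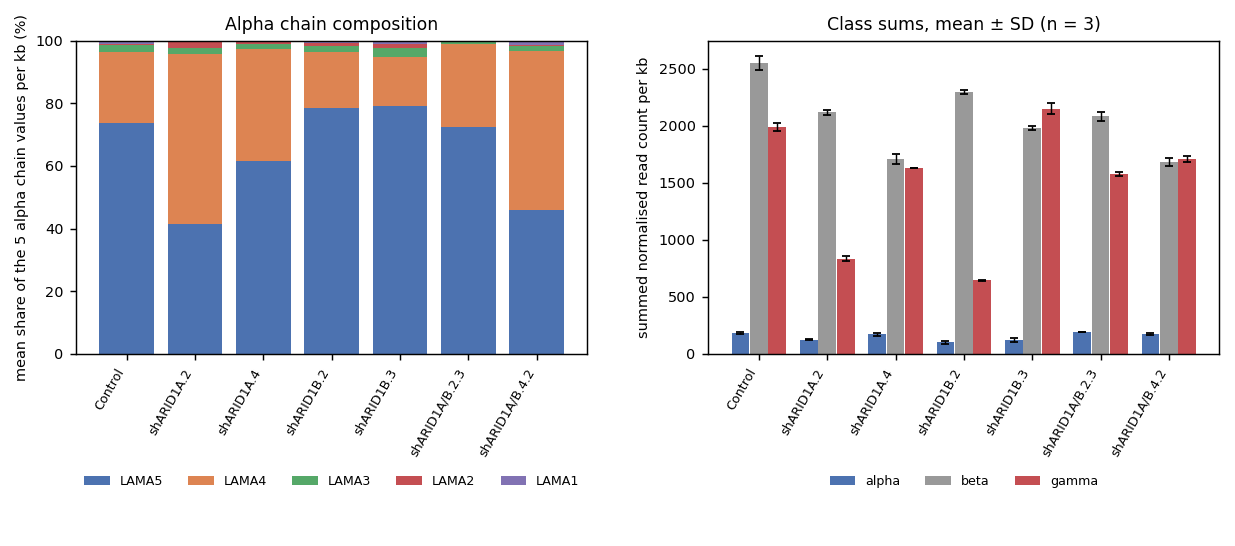
Left, mean share of each alpha chain in the sum of the 5 alpha chain values per kb (%, stacked bars). Right, summed normalised read counts per kb of the alpha, beta and gamma genes (bars, mean and SD of 3 libraries). LAMA4 passes LAMA5 in shARID1A.2 and shARID1A/B.4.2, and the gamma sum is lowest in shARID1A.2 and shARID1B.2.

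Within a library the make-up of the alpha class does not depend on the scaling between libraries, but it does depend on the exon lengths used. LAMA5 made up 73.7% ± 1.11 (SD, n = 3) of the 5 alpha chain values per kb in Control and LAMA4 22.6% ± 1.60. In shARID1A.2 LAMA4 made up 54.3% ± 2.27 and LAMA5 41.3% ± 2.88, and in shARID1A/B.4.2 LAMA4 made up 51.0% ± 1.22 and LAMA5 45.9% ± 1.83. The LAMA4 share in these 2 conditions, 49.7% to 56.3% over 6 libraries, did not overlap the 21.3% to 24.4% of Control. The LAMA4 share was 35.8% in shARID1A.4 and 26.5% in shARID1A/B.2.3. The conditions labelled shARID1B had the smallest, at 15.8% (shARID1B.3) and 18.04% (shARID1B.2).

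The gamma sum followed LAMC1, which made up 94.2% to 98.1% of it in the condition means. It was 836 ± 19.2 normalised reads per kb in shARID1A.2 and 644 ± 6.20 in shARID1B.2, against 1988 in Control. The beta sum, 92.3% to 95.1% LAMB1, ran from 1682 in shARID1A/B.4.2 to 2298 in shARID1B.2, and the alpha sum from 100 ± 9.98 in shARID1B.2 to 193 in shARID1A/B.2.3. The sums hold the 9 members alone.

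The ratio of LAMC1 to LAMB1 per kb was 0.812 ± 0.0057 in Control (SD, n = 3). It was 0.408 ± 0.0083 in shARID1A.2 and 0.283 ± 0.0026 in shARID1B.2, and 0.988, 1.12 and 1.07 in shARID1A.4, shARID1B.3 and shARID1A/B.4.2. shARID1A/B.2.3 was closest to Control, with 0.7805 to 0.7954 against 0.8085 to 0.819. The ratio of LAMA4 to LAMA5 was 0.307 ± 0.0263 in Control, 1.32 ± 0.143 in shARID1A.2 and 1.11 ± 0.0707 in shARID1A/B.4.2. It was 0.230 in shARID1B.2 and 0.201 in shARID1B.3, each below the Control range. The size of either ratio depends on the exon lengths used, while its fold change between conditions does not.

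Laminin receptors were described from a list of 13 genes, all tested. Against Control, in the order used above for the member counts (from the pair labelled shARID1A to the combinations), 8, 10, 8, 7, 9 and 10 were lower and 2, 2, 3, 4, 3 and 1 higher. Over these 6 comparisons 32% to 38.2% of all genes were lower and 31.6% to 37.9% higher, which for 13 genes is 4 or 5 in each direction. This list and those below were chosen with earlier results of these data known, so no enrichment is read from the counts. The list medians were -0.96, -0.80, -0.58, -0.25, -0.44 and -0.53 on the log2 scale, beside 0.01 to 0.02 for all genes. ITGA6, which pairs to form classical laminin integrins, was lower in all 6, at log2 fold changes of -1.99, -2.12, -2.28, -1.33, -1.51 and -0.53 in that order. ITGA3, another laminin-binding subunit, ranged from -2.04 to -0.83, ITGA2 from -2.42 to 0.17 and the heparan sulphate proteoglycan SDC1 from -2.08 to -0.68, with each of the 3 called in all 6 comparisons. The 0.17 of ITGA2, in shARID1B.3, was a rise.

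Basement membrane partners were a list of 16 genes, of which 13 were tested. In the same order 9, 11, 6, 11, 8 and 8 were lower and 3, 1, 5, 0, 2 and 4 higher (limma, with the 0 also at an unadjusted p under 0.05 and by edgeR and DESeq2), beside the same 32% to 38.2% and 31.6% to 37.9% of all genes. The list medians ran from -0.96 in shARID1A.2 to -0.04 in shARID1B.2. NID1, which links laminin to collagen IV by binding the gamma chain, was lower in all 6, at -2.19, -1.80, -0.78, -1.34, -0.78 and -2.11. COL4A1, a collagen IV chain, was lower in all 6 from -1.19 to -0.15, and FBLN2, which binds laminin and nidogen, from -2.74 to -0.54. NTN4, a netrin that disrupts laminin networks, was higher by 2.88 in shARID1A.2, 1.77 in shARID1B.2 and 3.24 in shARID1A/B.4.2 at 1.94 to 59.5 normalised reads per library.

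Enzymes that glycosylate alpha-dystroglycan, so that it can bind the alpha chains, were a list of 12 genes, all tested. In the same order 4, 6, 6, 7, 3 and 2 were lower and 6, 5, 4, 1, 4 and 5 higher, with list medians between -0.32 and 0.07. Among all genes 32% to 38.2% were lower and 31.6% to 37.9% higher, or about 4 of 12 in each direction. The kinase POMK was lower in all 6 (-1.81 to -0.99) and the transferase B3GALNT2 higher in all 6 (0.93 to 2.18). POMT2, the first mannosyltransferase step, was lower in all 6 from -0.49 to -0.14. DAG1, dystroglycan itself, ranged from -0.49 to 0.30.

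Likeness between genes was measured as the root mean square difference of the 7 condition means of log2(value + 1), each centred on its mean. Among 13674 other genes with a mean of at least 50, LAMC1 was closest to AC022149.1 (0.10), ITGB1 (0.12) and HYOU1 (0.15), while its own root mean square deviation was 0.63. ITGB1, the beta subunit of most laminin integrins, had log2 fold changes of -1.46, -0.31, -1.65, -0.05, -0.38 and -0.53 in the order above. LAMA5 was closest to GFOD1 (0.08), AAK1 (0.09) and UBL3 (0.10), against its own 0.46. LAMA4 was nearest to TMEM144, CHGA and ZNF571-AS1, at 0.30 against its own 0.82. The nearest to the low genes were ARNTL2 (0.29, against 0.91) for LAMA1, LOX (0.24, against 0.61) for LAMA2 and LRTOMT (0.21, against 0.60) for LAMA3. The points are the 7 condition means and come from the same libraries.

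Overlapping transcripts were scarce. LAMC1-AS1 and LAMA4-AS1 were at 0 in every library, and LAMA5-AS1 did not pass 5.97 normalised reads.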

How the data were processed

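RNA from 21 libraries of SK-N-BE(2) cells was sequenced as stranded polyadenylated RNA. The submitters' processing notes name STAR 2.5.3a, RSEM 1.3.0, DESeq2 1.26.0 and GRCh38. The deposited table holds a signal per gene and library, gene counts that the authors divided by a size factor per library (0.8409 to 1.2945), although its title calls the values raw. Dividing by the step of the low values gave whole reads (within 0.02 read) for 99.985% to 100% of values. Other deposited tables hold the authors' fold changes and p-values against control and were not used here.

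Groups were taken from the labels. log2(value + 1) of 18584 genes kept by edgeR's expression filter was fitted with limma 3.58.1 (trend) over 7 conditions, with Benjamini-Hochberg adjustment over all genes tested, as planned for normalised values. Folds on this scale understate changes of low genes. Alternatives were pseudocounts of 0.5 and 5, edgeR 4.0.16 (quasi-likelihood, TMM; 11887 to 14188 genes called per comparison) and DESeq2 1.42.0 on the recovered reads, 2 other scalings, 2 other filters, a replicate block, fits of 2 conditions only and leaving out each library. R 4.3.3 and Python 3.11.15 were used. On simulated counts for shARID1A.2 against Control limma found 98 of 100 genes changed 2-fold (1 on the log2 scale), 100 of 100 changed 4-fold (2 on the log2 scale), and made 12 false calls among 18584 genes. The changed genes were drawn only from those with a mean of at least 50 reads, which LAMA1, LAMA2 and LAMA3 did not reach. Far fewer genes were changed there than were called in the data, so this recovery does not carry over to either case.

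The members and gene lists were chosen with earlier results of these data known. Named beside the 9 members and ARID1A and ARID1B are, per list, up to 4 genes called in at least 3 of the 6 comparisons with Control with the largest mean change, and, for members past 1 on the log2 scale, the 3 most alike genes. DAG1 was named outside that rule, after its values were seen. An item that the rule would name is not reported here. Chain lengths are unions of exons in GENCODE release 29 (58541 of 60728 identifiers matched without version), and promoters are RefSeq's on GRCh38.p14. Replicate pairs differed by 1.554 to 4.258 chi-square per degree of freedom, so none was a duplicate. The design calls the libraries biological triplicates of 1 line, so p-values measure the spread between cultures of that line.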

Additional observations from a re-analysis of the deposited data

Results flagged for a closer look

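The 2 shRNAs, or combinations, that share a label differed from each other for the following laminin genes by the direct contrast in the limma fit (adjusted p under 0.05 over all 18584 genes).

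Between shARID1A.4 and shARID1A.2, 3 members were lower in the former and 3 higher. The log2 differences were -0.16 for LAMA4, -0.29 for LAMB1, -0.59 for LAMB2, 1.02 for LAMA5, 0.98 for LAMC1 and 0.48 for LAMC3. Between shARID1B.3 and shARID1B.2, 2 were lower and 3 higher, with -0.19 for LAMB1, -0.63 for LAMB2, 0.77 for LAMA3, 0.29 for LAMA5 and 1.80 for LAMC1. Between shARID1A/B.4.2 and shARID1A/B.2.3, 4 were lower and 4 higher, with 2.21 for LAMA1, 1.32 for LAMA3, 0.79 for LAMA4, -0.82 for LAMA5, -0.31 for LAMB1, -0.24 for LAMB2, 0.12 for LAMC1 and -0.21 for LAMC3. The LAMA4 difference of -0.16 was not called with upper-quartile scaling (-0.13, limma adjusted p = 0.076) or in 4 of the fits that left out 1 library. The LAMC3 difference of -0.21 between the combinations was not called with edgeR, DESeq2, scaling to total reads (-0.06), the 2 conditions fitted alone or 4 of the fits that left out 1 library (-0.32 to -0.14 over all of them). The LAMB2 difference of -0.24 was -0.09 and not called with scaling to total reads (limma adjusted p = 0.23). LAMB1 and LAMB2 were lower in the first-named condition of all 3 contrasts under the deposited scaling. ARID1B differed in the same contrasts by 0.47, 0.28 and -0.45 and ARID1A by 0.06, 0.37 and -0.06.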

How the results depend on the processing

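Over 81 gene results (9 members in 9 comparisons) and their alternatives, 2405 values kept their direction and their side of the threshold, 51 fell short of it, 22 passed it and 15 changed sign. The counts of members called stayed within 1.5 times the reported ones under every alternative run, except that upper-quartile scaling called 8 members for shARID1B.3 against shARID1B.2 instead of 5.

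Scaling to total reads moved the median of all genes to 0.19 in shARID1A.2, 0.15 in shARID1B.2 and 0.20 in shARID1A/B.4.2, with 5570 lower and 8787 higher, 4631 and 7890, and 4836 and 8901 genes called in place of 7094 and 7048, 6320 and 5869, and 6708 and 6522. It moved the median of the contrasts between shRNAs to -0.18, -0.11 and 0.17, with 8619 lower and 5557 higher, 7590 and 4887, and 5435 and 8631, in place of 7145 and 6936, 6129 and 6140, and 6903 and 7021. Against Control it turned LAMB2 to 0.16 in shARID1A.2 and 2e-04 in shARID1B.2, and it turned LAMA4 to -0.0254 for shARID1B.3 against shARID1B.2. LAMB2 in shARID1A.2 was also turned by edgeR (0.0083) and upper-quartile scaling (0.0432). None of these was called under the deposited scaling, and of the turned values the 0.16 alone passed (limma adjusted p = 0.032).

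Leaving out 1 library turned the sign of 5 results that had not passed. LAMB2 in shARID1A.2 ranged from -0.0588 to 0.0222, LAMA2 in shARID1B.2 from -0.0711 to 0.6741, LAMA2 in shARID1A/B.2.3 from -0.4213 to 0.0382, LAMA1 in shARID1A/B.4.2 from -0.0453 to 0.267 and LAMA3 in shARID1A.4 against shARID1A.2 from -0.2188 to 0.0625. LAMC1 in shARID1A.2 stayed between -1.30 and -1.26 and in shARID1B.2 between -1.68 and -1.66. Over 31 alternatives the LAMA4 difference lay between 1.76 and 1.82 for the label shARID1A against shARID1B and between 1.81 and 1.87 for shARID1A/B against shARID1B. Depth limited LAMA1, LAMA2 and LAMA3, and a minimum of 10 reads in every library kept 7 of the 9 members.

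Replicate numbers did not pair the libraries (same-numbered libraries correlated from -0.233 to 0.186, median 0.009, and 5 of 21 correlated best with their own number). With a replicate block the count of members called was 8, 8, 7, 7, 7 and 7 in the 6 comparisons with Control and 6, 5 and 8 between shRNAs, and no call changed.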

Other observations

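LAMB4, a beta chain gene outside the list and chosen here after its values were seen, had few reads but differed between conditions. It had 5.87, 11.2 and 7.19 normalised reads in Control, 17.5, 20.2 and 26.9 in shARID1A.4 and 28.9, 36.1 and 32.8 in shARID1B.3, with log2 fold changes of 1.33 and 1.92 (limma adjusted p = 0.0013 and 3.1e-05). In shARID1A.2 LAMB4 had 2.49, 1.03 and 1.11 and in shARID1A/B.4.2 1.82, 1.54 and 2.81, at -1.84 and -1.55 (limma adjusted p = 3.8e-05 and 3.1e-04). The difference between the shRNAs was 3.17 for shARID1A.4 against shARID1A.2, 2.14 for shARID1B.3 against shARID1B.2 and -1.62 for shARID1A/B.4.2 against shARID1A/B.2.3.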
